A study of Mus musculus with 2 samples.

Results

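The hydroxysteroid dehydrogenases and the steroid 5-alpha reductase Srd5a1 were examined in mouse liver as a group of 10 genes: Hsd11b1, Hsd3b2, Hsd3b3, Hsd3b5, Hsd17b2, Hsd17b6, Hsd17b10, Hsd17b11, Hsd17b13 and Srd5a1. They were chosen by name, with earlier results of these data known. All probe sets that the platform annotation assigns to 1 of these symbols were taken. This gave 9 genes with 15 probe sets of their own, out of 18193 named genes in all. Srd5a1 was named by no probe set in this annotation and was not analysed here, so nothing below describes 5-alpha reduction by that enzyme. Another probe set is annotated to Hsd3b6, Hsd3b3 and Hsd3b2 jointly and is given apart, since its signal belongs to no single gene.

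The livers came from female wild-type C57BL/6 mice of 8 weeks. One group had 30 min of warm ischemia of both kidneys followed by reperfusion, which injures the kidneys acutely (AKI), and the other had a sham operation. Livers were collected 24 h after surgery, 100 mg of tissue from 3 mice was pooled per group (the labels do not say whether per mouse or in all), and each pool was measured on 1 Affymetrix expression array. The study asked which liver genes differ after kidney injury. With 1 pool per group the variation between mice is unknown, no test between the groups exists, and "higher" and "lower" describe these 2 pools only. In a bulk tissue sample, fewer cells of a type cannot be told apart from less RNA per cell.

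Hydroxysteroid dehydrogenases interconvert hydroxyl and keto groups on the steroid skeleton, and with them active and inactive forms of glucocorticoids, androgens and estrogens. The liver is the main site where circulating steroids are reduced, oxidised and conjugated for excretion, and Hsd11b1 in hepatocytes regenerates active glucocorticoid from its inactive keto form. Several enzymes that carry the family name act mainly on other substrates. Hsd17b10 is a mitochondrial enzyme of isoleucine breakdown and a subunit of mitochondrial ribonuclease P, and Hsd17b11 and Hsd17b13 sit on lipid droplets.

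Values are signal intensities, and a difference is the AKI value of log2(signal + 71.8) less the sham value, a scale that understates changes of weak probe sets. A gene with several probe sets is represented by the one with the highest mean log2 level, and was counted when that probe set reached the median of its array on at least 1 array (225.7 sham, 231.8 AKI). The only repeat measurement is a further probe set for a gene. Differences of such probe sets had an SD of 0.66 for the strongest of 4 classes of level, 0.90 for the weakest, and this SD leaves out the animals. The 3 Hsd3b genes and Hsd17b6 were lower with AKI by 2-fold or more, while Hsd11b1, Hsd17b2, Hsd17b10, Hsd17b11 and Hsd17b13 differed by less than 2-fold. At least 2-fold lower were 4 of 9 genes, against 12.4% of all 13128 genes past the level filter, and at least 2-fold higher were 0 of 9, against 10.4%. Of the 9, 3 were at least 4-fold lower, against 2.37% of all genes, and 0 were at least 4-fold higher, against 2.09%. The median difference of the 9 genes was -0.84, and that of all genes -0.02. All 9 genes passed the level filter, but Hsd3b2 and Hsd3b5 passed only through their sham signal and so had to be lower. Among genes above the median on both arrays, 2 of 7 members were at least 2-fold lower, against 925 of 10600 genes (8.73%). At least 4-fold lower there were 1 of the 7 members and 146 of the 10600 genes.

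**Figure D1:**
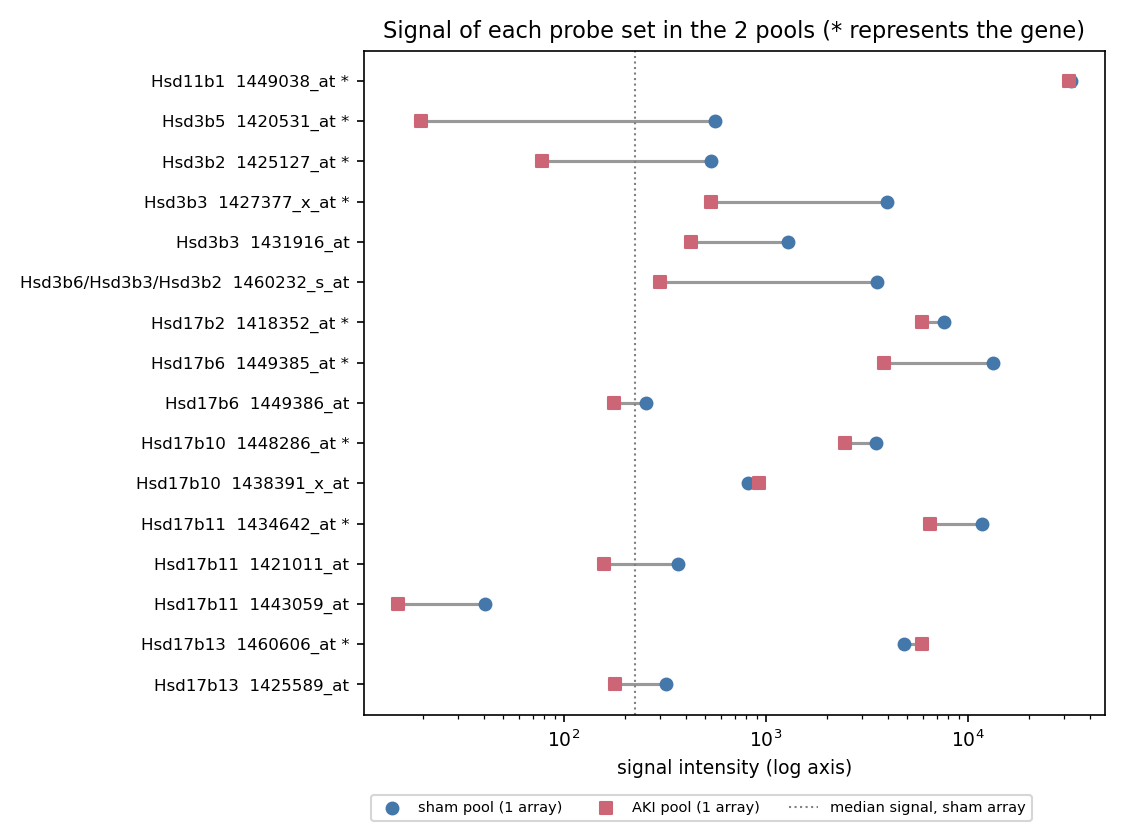
Signal intensity (log axis) of each probe set of the member genes, and of the probe set shared by Hsd3b6, Hsd3b3 and Hsd3b2, in the sham pool (circles) and the AKI pool (squares), 1 array each; the dotted line is the sham array's median of 225.8. The 3 Hsd3b genes and the main probe set of Hsd17b6 lie far to the left in the AKI pool, while the 2 points of Hsd11b1 overlap.

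Hsd11b1, which reduces inactive 11-keto glucocorticoid to its active form, gave signals of 32396.2 (sham) and 31687.5 (AKI). The pools were nearly equal, with a difference of -0.03 from a single probe set. The size of this difference is 0.0486 of the SD between probe sets in its level class. Its sign depends on the scaling, and ranged from -0.32 with centring on reference genes to 0.27 with centring on hybridization controls.

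Of 10 measured genes listed around the cofactor and regulation of Hsd11b1, 4 differed by at least 2-fold. Over all genes past the filter the shares were 12.4% lower and 10.4% higher. The list includes genes of glucose 6-phosphate use and of NADPH making that need not supply Hsd11b1. H6pd makes the NADPH that Hsd11b1 uses inside the endoplasmic reticulum, and its signal was 4552.8 with sham surgery and 8616.3 with AKI, a difference of 0.91. Of the 12 genes in this list 10 were measured, and their median was -0.44 (-0.14 with centring on hybridization controls). At least 2-fold lower were 3 of them, G6pc (-4.35) and Slc37a4 (-1.45), which encode the phosphatase and the transporter of glucose 6-phosphate, and the malic enzyme gene Me1 (-1.19). Another probe set of Me1 was at -0.68. The C/EBP transcription factor gene Cebpd (2.33) was the 1 gene at least 2-fold higher, and another probe set of it was at 0.58. With centring on hybridization controls 3 genes of the list were at least 2-fold higher, against 16.8% of all genes. C/EBP factors are known regulators of Hsd11b1, and the others of the family, Cebpa (-0.93) and Cebpb (0.84), went opposite ways by less than 2-fold. H6pd, Cebpa and Cebpb are named for their role.

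Hsd3b2, Hsd3b3 and Hsd3b5 belong to the 3-beta-hydroxysteroid dehydrogenase family, whose classical members turn delta-5 steroids such as pregnenolone into delta-4 steroids. Hsd3b5 works mainly as a 3-ketosteroid reductase and is known as a male-predominant liver gene, and these livers were female. The 3 genes are neighbours in the genome. The 250 bases before their start sites are shown because all 3 genes were lower. They are from RefSeq, build GRCm38.p6, minus strand, written 5′ to 3′, at chr3:98645535-98645784 for Hsd3b5, chr3:98724544-98724793 for Hsd3b2 and chr3:98763129-98763378 for Hsd3b3. Hsd3b3 has 2 starts in the sequence source, and the most upstream was used. Capitals mark exact runs of at least 12 bases that 1 of these sequences shares with another.
Hsd3b5: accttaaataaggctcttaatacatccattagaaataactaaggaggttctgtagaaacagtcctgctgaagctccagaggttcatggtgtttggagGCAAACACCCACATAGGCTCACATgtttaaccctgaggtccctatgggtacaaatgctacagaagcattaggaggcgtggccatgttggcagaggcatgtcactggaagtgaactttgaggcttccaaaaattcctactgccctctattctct
Hsd3b2: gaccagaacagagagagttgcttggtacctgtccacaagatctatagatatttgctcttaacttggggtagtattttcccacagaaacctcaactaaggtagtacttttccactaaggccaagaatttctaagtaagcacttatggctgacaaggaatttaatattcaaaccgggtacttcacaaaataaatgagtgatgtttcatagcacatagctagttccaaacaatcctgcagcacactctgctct
Hsd3b3: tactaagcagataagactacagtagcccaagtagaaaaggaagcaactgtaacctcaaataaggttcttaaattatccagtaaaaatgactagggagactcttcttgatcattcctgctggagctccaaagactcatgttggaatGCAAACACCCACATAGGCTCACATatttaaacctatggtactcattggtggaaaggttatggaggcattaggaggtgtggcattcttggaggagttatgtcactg

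The Hsd3b5 and Hsd3b3 sequences share a run of 24 bases, and the Hsd3b2 sequence shares no run of 12 bases with either. In a local alignment of the 300-base entries, which add the 50 bases after the start, 191 of 252 aligned positions (75.8%) were identical between Hsd3b5 and Hsd3b3. Between Hsd3b5 and Hsd3b2 the alignment covered 81 positions, of which 61 were identical, and between Hsd3b2 and Hsd3b3 it covered 33, of which 29 were identical. Of 6 motifs searched on both strands of the 250 bases, Hsd3b3 held the CCAAT box (CCAAT) once, on the opposite strand from position -62, and 34.5% of 27025 promoters hold it. Hsd3b2 held the glucocorticoid receptor half-site AGAACA once, from position -246, found in 16.1% of promoters. Neither the STAT motif TTCNNNGAA (7.14% of promoters), the C/EBP motif TTGCNNAA (9.55%), the nuclear receptor half-site AGGTCA (13.8%) nor the TATA box TATAAA (13.0%) occurred in the 3 sequences, and no match overlapped another. A match is only a match of letters.

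For Hsd3b5 the signal was 556.6 with sham surgery and 19.6 with AKI. The AKI value lies below the pseudocount, so the gene was well measured in the sham pool only. The difference was -2.78, and its size depends on the pseudocount, being -4.76 with a pseudocount of 1 and -1.66 with the table median of 228.7. For Hsd3b2 the signal was 531.5 with sham surgery and 77.5 with AKI, a difference of -2.01. This value too rests on a weak AKI signal, with -2.76 at a pseudocount of 1 and -1.31 at the table median.

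Hsd3b3 was measured by 2 probe sets that were both above the array medians in both pools. The representing probe set, 1427377_x_at, had a signal of 3952.6 with sham surgery and 536.1 with AKI, a difference of -2.73 and 4.16 times the SD between probe sets. The other, 1431916_at, had 1285.3 and 423.2, a difference of -1.46, with the sham signal 3.04 times the AKI signal. Both probe sets were lower in the AKI pool, and Hsd3b3 is the member whose fall of at least 2-fold was repeated by a further probe set. The suffix _x_at marks probe sets that can also bind other transcripts, and the Hsd3b genes are close paralogs, so the 3 genes may share signal and are not independent measurements. The probe set annotated jointly to Hsd3b6, Hsd3b3 and Hsd3b2 had 3559.2 with sham surgery and 298.8 with AKI, a difference of -3.29.

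The neighbourhood of these genes was uneven. In RefSeq gene order the next genes after Hsd3b3 are Hsd3b6, which has no probe set of its own, Hsd3b1 and Hao2. Hsd3b1, the form of gonads and adrenals, had a signal of 524.2 with sham surgery and 349.5 with AKI (-0.50). Hao2, a peroxisomal hydroxy acid oxidase, had 4517.0 and 684.1 (-2.60). On the other side of the cluster the nearest gene with a probe set of its own was Zfp697 (0.43), and beyond Hao2 it was Wars2 (0.19), whose sign turned with centring on reference genes (-0.095). The joint probe set of Hsd3b4, Gm4450 and Gm10681 was near the bottom of the range on both arrays, at 12.9 and 34.8. Values at least 2-fold lower were thus those of Hsd3b5, Hsd3b2, Hsd3b3 and Hao2 but not of Hsd3b1, which lies between Hsd3b3 and Hao2. The value of Hsd3b1 rests on 1 probe set, and how far it holds signal of its paralogs was not tested.

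**Figure D2:**
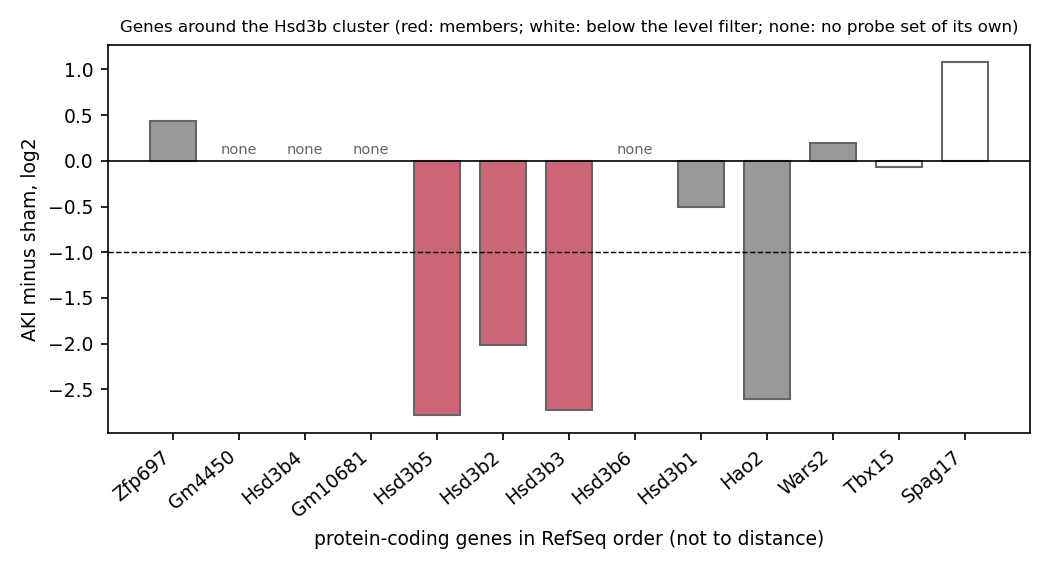
AKI minus sham difference (log2) of protein-coding genes around Hsd3b3 in RefSeq order, with equal spacing; red bars are members, grey bars other genes, white bars genes below the level filter, and "none" marks genes without a probe set of their own. Hsd3b5 (-2.78), Hsd3b2 (-2.01), Hsd3b3 (-2.73) and Hao2 (-2.60) lie below the dashed 2-fold line, and Hsd3b1 (-0.50) does not.

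Hsd17b2 and Hsd17b6 oxidise sex steroids. Hsd17b2 turns estradiol and testosterone into the less active estrone and androstenedione, and its single probe set had 7600.1 with sham surgery and 5938.3 with AKI. The difference of -0.35 was 0.54 of the SD between probe sets, and the error of this probe set between pools is unknown. Hsd17b6 acts on 3-alpha-hydroxysteroids such as androstanediol and is related in sequence to retinol dehydrogenases. Its main probe set, 1449385_at, had 13259.3 with sham surgery and 3835.7 with AKI, a difference of -1.77 and 2.70 times the SD. Its other probe set, 1449386_at, was weak, with 253.5 and 177.2, and differed by only -0.39. Both were lower in the AKI pool, but the strong and the weak probe set gave different sizes, and their mean was -1.08.

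Hsd17b6 also lies in a gene cluster, next to short-chain dehydrogenases that act on retinol or steroids. Of the 6 genes on that side, 5 had a probe set of their own and all 5 were lower: Sdr9c7 (-1.28), Rdh7 (-0.62), Rdh16f2 (-0.85), Rdh16 (-0.92) and Rdh9 (-0.58). Over all genes past the filter, 6703 of 13128 were below 0. Only Sdr9c7, with signals of 577.5 and 196.0, passed 2-fold, against 12.4% of all genes past the filter. It passed the level filter only through its sham signal and so had to be lower. On the other side Prim1 (-0.25) and Naca (0.05) were close to 0. These 5 genes were below 0 under every setting in which they were measured, with Rdh9 reaching -0.28 and Sdr9c7 -0.92 at the least negative. Probe sets of related dehydrogenases can share signal.

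Hsd17b10 was measured by 2 probe sets that went opposite ways. The main one, 1448286_at, had 3523.8 with sham surgery and 2468.7 with AKI (-0.50), and 1438391_x_at had 817.5 and 926.4 (0.17). Both lie within 1 SD between probe sets and their signs differ, so no direction can be given. All 13 listed genes of its partners in tRNA processing and branched-chain amino acid breakdown were measured, with a median of -0.94. Of these, 5 were at least 2-fold lower and 0 higher: Hibch (-2.74), which acts on valine, the thiolase Acat1 (-1.58), the branched-chain acyl-CoA dehydrogenase Acadsb (-1.33), the keto acid dehydrogenase subunit Bckdha (-1.22) and the aminotransferase Bcat2 (-1.09). Over all genes past the filter the shares were 12.4% lower and 10.4% higher. With centring on hybridization controls the count of lower genes was 3, against 8.12% of all genes. With centring on reference genes it was 8, against 19.3%. Without probe sets that can bind several transcripts it was 2 of 10, against 12.6%. The 2 other subunits of mitochondrial ribonuclease P, Trmt10c (-0.22) and Prorp (-0.50), were close to Hsd17b10 itself. The 5 genes at least 2-fold lower were all breakdown enzymes, as are all listed genes except Trmt10c, Prorp and Elac2 (-0.36). A contrast between the roles was not tested.

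Hsd17b11 and Hsd17b13 are neighbouring genes for related lipid droplet proteins. Hsd17b11 had 11675.3 with sham surgery and 6480.4 with AKI, a difference of -0.84 or 1.29 times the SD. Its other probe sets gave 365.4 and 158.4 (-0.93), and 40.8 and 15.0 (-0.38), the last below the level filter. All 3 were lower in the AKI pool and none reached 2-fold on this scale. With centring on reference genes the main probe set reached -1.13.

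Hsd17b13 was the 1 member whose main probe set was higher in the AKI pool, with 4847.9 and 5912.3 (0.28). Its other probe set, 1425589_at, was weak and went the other way, with 319.4 and 178.7 (-0.64). No direction can thus be given for this gene, and its sign turned with centring on reference genes (-0.0065) and with the mean of probe sets (-0.18). Among other lipid droplet genes the picture was mixed as well. Of 22 measured, 6 were at least 2-fold lower and 4 higher, against 12.4% and 10.4% of all genes. Their median of -0.20 became 0.10 with centring on hybridization controls. With that centring 3 were lower and 8 higher, against 8.12% and 16.8% of all genes. The 4 higher genes were Hilpda (4.25), an inhibitor of lipolysis, Cidec (2.98), Plin2 (2.04) and Plin4 (1.53), which coat droplets, and the lowest was Mettl7b (-2.22). The sham signals of Cidec (123.7) and Plin4 (97.3) were below the array median.

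**Figure D3:**
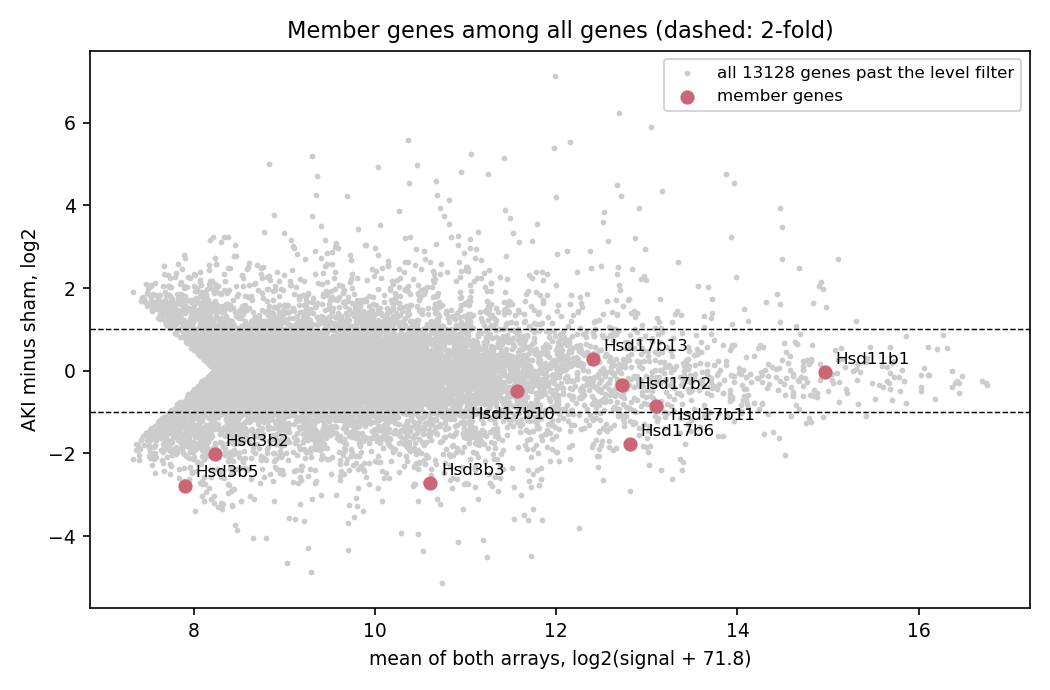
AKI minus sham difference (log2) against the mean log2(signal + 71.8) of both arrays, for 13128 genes past the level filter (grey) and the 9 member genes (red); dashed lines mark 2-fold. Hsd3b2, Hsd3b3, Hsd3b5 and Hsd17b6 lie below the lower dashed line, and the other 5 members between the lines.

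Other genes of steroid metabolism were compared from lists, which like the members were chosen with earlier results of these data known. Of 33 further hydroxysteroid dehydrogenase, aldo-keto reductase, reductase and retinol dehydrogenase genes, 25 were measured, with a median of -0.79. At least 2-fold lower were 10 and higher 0, against 12.4% and 10.4% of all genes. With centring on hybridization controls or a pseudocount of 1, the count of higher genes was 1, against 16.8% and 12.5% of all genes. The lowest was Akr1c14, a 3-alpha-hydroxysteroid dehydrogenase that acts on 5-alpha-reduced steroids, with 3693.4 with sham surgery and 113.1 with AKI (-4.35). Akr1c14 passed the level filter only through its sham signal. Next were Akr1c19 (-1.99), Hsd3b7 (-1.77), which is an enzyme of bile acid synthesis, and Akr1c20 (-1.64), for which another probe set was at 0.07. The steroid reductase Srd5a3, whose main role is in dolichol synthesis, had 361.9 and 334.7 (-0.09), with probe sets from -1.28 to 0.13. It is named for its family.

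Of 23 measured steroid P450 and conjugating enzyme genes, 4 were at least 2-fold lower, the sulfotransferase Sult3a1 (-2.75), the glucuronosyltransferases Ugt2b35 (-2.13) and Ugt2b5 (-1.10), and the steroid hydroxylase Cyp7b1 (-1.96). At least 2-fold higher were 2, the estrogen sulfotransferase Sult1e1, whose signal was weak at 32.6 with sham surgery and 3764.3 with AKI (5.20), and Cyp2b10 (1.81). All genes past the filter had shares of 12.4% lower and 10.4% higher. The list median was -0.34, and -0.05 with centring on hybridization controls. Sult1e1 inactivates estradiol by sulfation, and Hsd17b2, with its difference of -0.35, by oxidation.

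Among 10 measured steroid receptors and chaperones, with a median of -0.69, the mineralocorticoid receptor gene Nr3c2 (-2.16), Fkbp4 (-4.03) and Stip1 (-1.10) were at least 2-fold lower and Hsp90aa1 (1.44) was higher. With centring on reference genes 5 were at least 2-fold lower, against 19.3% of all genes. With the mean of probe sets 0 were higher, against 9.79%. Nr3c2 (351.4 and 23.2) and Fkbp4 (1724.7 and 37.8) passed the level filter only through their sham signal, and their AKI signals lie below the pseudocount, so the sizes of their differences depend on it. Fkbp4 had a further probe set at 0.65, and Hsp90aa1 one at 0.12. The glucocorticoid receptor gene Nr3c1, named for its role, had 1778.5 and 984.5 (-0.81), with 4 probe sets from -1.05 to -0.42. Glucocorticoid receptor targets went both ways, with 8 of 16 at least 2-fold higher, 3 lower and a median of 0.90. Lcn2 (5.89), Igfbp1 (4.77) and Mt1 (3.94) were the highest, and Pck1 (-4.48), Tsc22d3 (-1.87) and Tdo2 (-1.47) the lower ones. Further probe sets were at 0.29 for Tsc22d3 and -0.48 for Pck1. For both lists the shares over all genes were 12.4% at least 2-fold lower and 10.4% higher.

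Since Hsd3b5 is a sex-biased gene under growth hormone control, sex-biased genes were set beside it. Of 16 measured male-biased genes other than Hsd3b5, 4 were at least 2-fold lower, Cyp7b1, Slco1a1 (-1.59), Cyp2u1 (-1.58) and Serpina12 (-1.57). At least 2-fold higher were 3, Bcl6 (1.83), Cyp4a12a (1.42) and Cspg5 (1.12), and the median was -0.54. With centring on reference genes 7 were lower, against 19.3% of all genes. With the table median as pseudocount 1 was higher, against 6.4%. Of 15 measured female-biased genes, 6 were at least 2-fold lower, led by Sult3a1, Fmo2 (-2.65) and Hao2, and 1 was higher, Sult1e1, with a median of -0.57. The 5 probe sets of Fmo2 ranged from -3.37 to 0.51. Both lists thus had negative medians, beside the low value of the male-predominant Hsd3b5. Among 19 measured genes of growth hormone signalling, with a median of -0.37, 5 were at least 2-fold lower, Igfals (-2.78), Onecut2 (-2.10), Onecut1 (-2.09), Cux2 (-1.90) and Stat5a (-1.01). At least 2-fold higher were 4, Socs3 (4.75), Stat3 (2.53), Bcl6 and Socs1 (1.25). Probe sets in the other direction were at 1.62 for Cux2 and -0.08 for Stat3. Smaller differences came from further probe sets of Cyp2u1 (-0.16) and Bcl6 (0.37). Of the genes named here, Cyp4a12a and Sult1e1 were below the array median with sham surgery, and Cyp2u1, Cux2 and Stat5a with AKI. Beside the counts of these lists, the shares over all genes were 12.4% at least 2-fold lower and 10.4% higher.

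**Figure D4:**
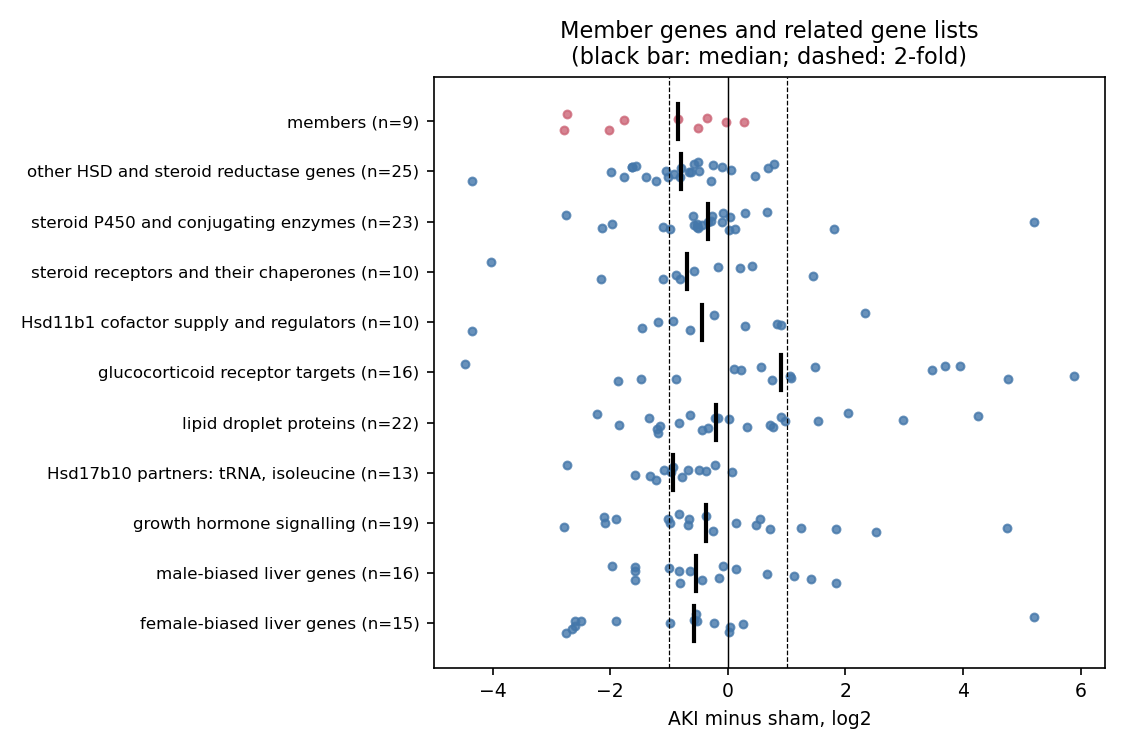
AKI minus sham difference (log2) of each measured gene (points) in the 9 members and in 10 related lists, with list medians as black bars and 2-fold as dashed lines; points are spread vertically at random. The members (-0.84) and the other hydroxysteroid dehydrogenase and reductase genes (-0.79) have negative medians, and the glucocorticoid receptor targets a positive one (0.90).

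Markers checked the tissue. The summed signal of 11 hepatocyte markers was 698700 with sham surgery and 633200 with AKI, with a median difference of -0.36 and 0 genes at 2-fold (2 lower with centring on reference genes, 1 higher with centring on hybridization controls or lowess), so hepatocyte transcripts were abundant in both pools. Neutrophil markers summed to 4054 and 9274 over 11 genes, with a median of 0.37 over these 11 and of 0.76 over the 9 past the filter. At least 2-fold higher were 4 of the 9 measured, S100a8 (3.17), S100a9 (2.72), Mmp9 (1.13) and Ngp (1.12), against 10.4% of all genes. With centring on reference genes the count was 2, against 6.73% of all genes. The sham signals of S100a8 (161.4), S100a9 (191.2), Mmp9 (193.2) and Elane (192.3) were below the array median. Those genes were counted only through their AKI signal and so had to be higher. Kupffer cell and macrophage markers summed to 16200 and 11650 (median -0.48, with Clec4f at -1.37, Marco at 1.46 and C1qa at -1.01, just past 2-fold). Endothelial markers summed to 10840 and 7896 over 10 genes (median -0.41, and -0.56 over the 9 past the filter, with Clec4g at -2.08, Stab1 at -1.55 and Lyve1 at 1.79). Stellate cell and fibroblast markers summed to 16330 and 22260, with a median of -0.13. Dcn (0.92) had 7724.9 and 14722.2, a larger increase than that of the sum, Hand2 was at 0.79, and Lrat at -1.74 had a weak AKI signal of 45.5. Lymphocyte markers summed to 3447 and 4594 over 9 genes, with a median of -0.03 over these and of 0.22 over the 5 past the filter (Nkg7 at 1.27). Cholangiocyte markers summed to 1124 and 2871 over 5 genes, with a median of 0.40. Of these, 2 passed the filter, Sox9 (2.58), with 229.2 and 1729.9, and Epcam (0.40), while Krt7, below the filter, was at -0.77. Erythroid markers summed to 1433 and 1564 over 3 genes (median 0.07) and kidney markers to 3143 and 3307 over 9 (median 0.10). The medians of the stellate, lymphocyte, erythroid and kidney lists changed sign under some settings. Marco (187.4), Hand2 (120.8) and Nkg7 (68.6) were also below the array median with sham surgery, and Lrat was with AKI.

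Adrenal cortex markers are of interest because that tissue also expresses Hsd3b genes. They summed to 13090 and 8872 over 8 genes, of which Fdx1, an adrenodoxin gene of many tissues, gave 10277.2 and 6721.2. The side-chain cleavage gene Cyp11a1 (184.0 and 101.9) and Cyp11b1 (55.3 and 57.3) were below the array medians in both pools, while the other 6 passed the level filter. Their median was -0.29, which became 0.0048 with centring on hybridization controls. At least 2-fold lower were 2 of the 6, Cyp21a1 (-1.25), for which another probe set was at 1.25, and Nr5a1 (-1.09). The count was 0 with centring on hybridization controls or the table median as pseudocount, against 8.12% and 8.09% of all genes. The share over all genes with the values as reported was 12.4%. Cyp21a1 (530.1 and 181.2) passed the filter only through its sham signal. No marker in any list was listed at 0, and the part of other cell types in the member differences was not tested. The 12 reference genes had a median of 0.29, with Tfrc (1.22) and Ywhaz (1.20) at least 2-fold higher. Another probe set of Tfrc was at 0.12, and the 7 of Ywhaz ranged from -0.40 to 1.20.

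The split between higher and lower genes depends on the scaling. With the authors' scaling 45.6% of 2-fold differences were higher in the AKI pool, 67.5% when centred on 18 hybridization controls, and 25.9% when centred on reference genes. The median of all genes was then 0.28 and -0.31. At least 2-fold lower were 8.12% and 19.3% of all genes under these centrings, and 4 and 5 of the 9 members. Hsd3b2, Hsd3b3, Hsd3b5 and Hsd17b6 were at least 2-fold lower under each setting in which they were measured. All settings reuse the same 2 arrays. Hsd3b2 and Hsd3b5 have 1 probe set each, so averaging or leaving out probe sets could not change them.

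**Figure D5:**
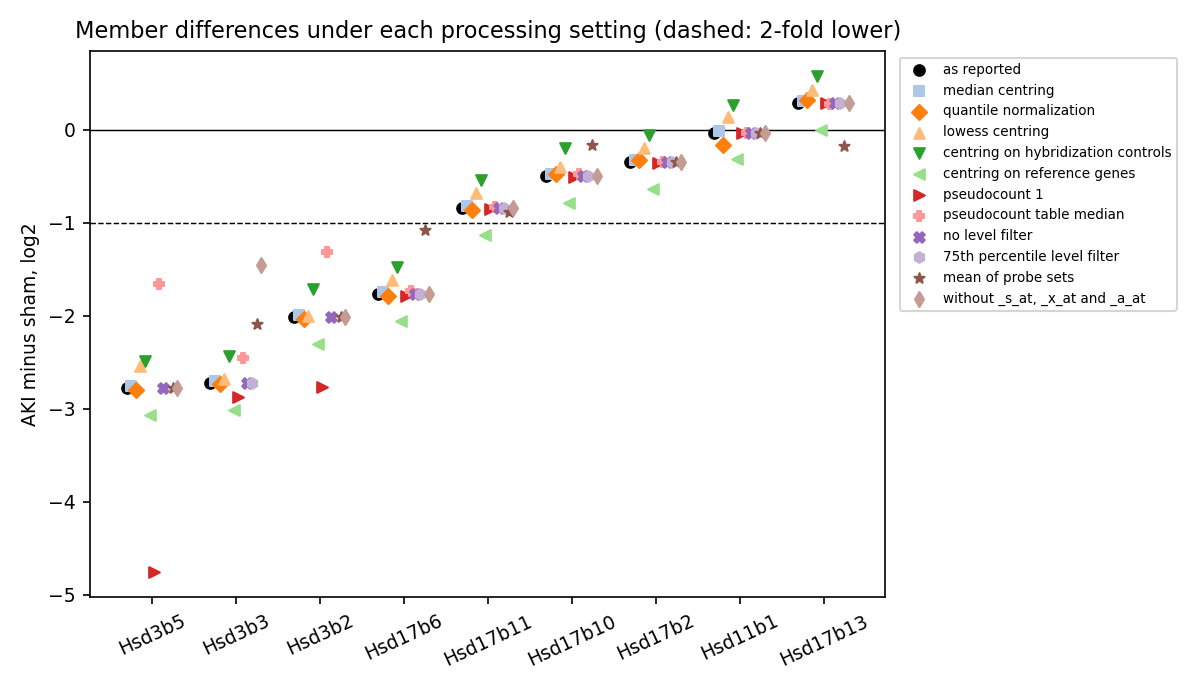
AKI minus sham difference (log2) of the 9 member genes under each processing setting (symbols), with black circles for the values as reported and a dashed line at 2-fold lower. Hsd3b5, Hsd3b3, Hsd3b2 and Hsd17b6 stay below the dashed line throughout, with Hsd3b5 spread from -4.76 to -1.66, and Hsd11b1 and Hsd17b13 lie on both sides of 0.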

How the data were processed

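Liver RNA of 2 pools, 1 sham and 1 AKI, was measured on 1 Affymetrix array each. The deposited values are signal intensity per probe set on a linear scale. Biotinylated cRNA was prepared from total RNA, per the labels' protocols, and no source used here names the software that made the values. The mean after trimming 2% at each end was 500.0 on both arrays, so the authors had scaled them to a common target, which removes any difference in total mRNA. Of 45101 probe sets, 64 were controls, 34945 had 1 gene symbol, 932 several and 9160 none.

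Differences of log2(signal + 71.8) were computed, with the 25th percentile of the table as pseudocount and the median of non-control probe sets as level filter. The number of arrays limits the precision, and there is no p-value. All members were named. From lists, genes at least 2-fold different were named, up to the 4 largest per list and more to complete counts of 5 or fewer. Genes named for their role or position were chosen after their values were seen. Members and lists were chosen with earlier results of these data known. The computation was tested on simulated data. Sequences are RefSeq entries, found for 9 of the 10 genes. Local alignments scored matches 2, mismatches -3, and gaps -5 and -2. Python 3.11.15, numpy 2.4.6, pandas 2.3.3, statsmodels 0.14.6, Biopython 1.88 and matplotlib 3.10.9 were used. The alternatives were median centring, quantile normalization, lowess centring, centring on hybridization controls or reference genes, pseudocounts of 1 and 228.7, no filter or a 75th percentile filter, averaging the probe sets per gene, and leaving out probe sets that can bind several transcripts.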

Additional observations from a re-analysis of the deposited data

How the results depend on the processing

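Across 11 alternatives the count of members at least 2-fold higher was 0 throughout, beside 6.4% to 16.8% of all genes. The count at least 2-fold lower stayed between 4 and 5 in 10 of them, beside 8.09% to 19.3% of all genes. With the 75th percentile filter Hsd3b2 and Hsd3b5 were not measured, which left 2 genes at least 2-fold lower of 7, with a median of -0.50. Under that filter 13.8% of 8205 genes were at least 2-fold lower. The median of the members moved to -0.54 with centring on hybridization controls and to -1.13 with centring on reference genes, and in the remaining 8 alternatives it moved by less than the SD between probe sets (0.70) divided by the square root of the number of members. Hsd3b3 was at -1.46 without probe sets that can bind several transcripts, and Hsd17b6 at -1.08 with the mean of its probe sets. No member at least 2-fold different changed direction. No paired analysis was possible because each group has 1 array, and leaving out an array would leave no comparison. Weak signals limit Hsd3b2 and Hsd3b5 in the AKI pool.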
